A study of Mus musculus with 407 samples.

Results

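The Runx transcription factors and their shared partner were followed across 4 mouse muscles and 6 ages. The 4 genes, Runx1, Runx2, Runx3 and Cbfb, were taken by symbol, as the members of the family and its partner, and each had 1 row among the 24458 gene symbols of the count tables. The study sequenced RNA from the breathing muscle (diaphragm) and from 3 hindlimb muscles (soleus, gastrocnemius and tibialis anterior) of C57BL/6J mice of both sexes, an inbred laboratory strain, in 407 libraries of 1 muscle each (203 male, 204 female). The mice were 6, 12, 18, 21 or 24 months old, or 27 months at the oldest. These fell into 48 groups of 6 to 10 libraries by sex, muscle and age. No gene was altered and no agent was given, and the 6-month mice of the same sex and muscle served as the reference for each older age. Tissues of mice of 1 age were collected on 1 day, so that age and day of collection cannot be told apart. The labels do not link the muscles of 1 mouse.

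Runx proteins bind DNA through a conserved runt domain, and Cbfb, the core binding factor beta subunit, does not touch DNA itself but joins each Runx protein, strengthens its binding and protects it from degradation. Runx1 is best known as a regulator of blood stem cells, and in muscle fibres it is induced when the nerve is lost and limits the wasting that follows. Runx2 is the master regulator of bone-forming cells and Runx3 is required for cytotoxic T cells and for a class of sensory neurons, so that a muscle holds several cell types in which these genes could be read.

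The members of the family share a signature in their own promoters. The window from 250 bases before to 50 bases after the annotated start (RefSeq, GRCm38.p6) of each distal promoter holds the core Runx binding motif, AACCACA, repeated in tandem with 1 base between the copies. The 3 sequences are shown because this doubled motif was found in only 4 of 32851 windows of that length, those of Runx1, Runx2, Runx3 and the non-coding gene Gm16225. Capitals mark the copies of the motif on the strand of the gene.
Runx1: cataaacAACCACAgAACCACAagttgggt
Runx2: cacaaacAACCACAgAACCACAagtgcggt
Runx3: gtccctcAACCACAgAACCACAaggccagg
The Runx1 stretch lies at chr16:92826025-92826054 on the minus strand, the Runx2 stretch at chr17:44814583-44814612 on the minus strand, and the Runx3 stretch at chr4:135120503-135120532 on the plus strand. Counted from the annotated start of the window, the doubled motif begins at position 27 in Runx1, at position 22 in Runx2 and at position -135 in Runx3. The Runx2 window held 3 copies on the strand of the gene, and the copy outside the doubled motif lies before the start. That window spans chr17:44814578-44814877, so that its start lies inside the Runx2 gene span given below and not at the end of it. The single motif, searched on both strands, was present in 5.27% of all windows, and neither the window of Cbfb nor the second windows of Runx1 and Runx3 held it.

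In GRCm38.p6 Runx1 spans chr16:92601466-92826074 on the minus strand, Runx2 chr17:44495987-44814797 on the minus strand, Runx3 chr4:135120645-135177990 on the plus strand and Cbfb chr8:105170674-105217989 on the plus strand. Runx2 overlaps Supt3, a gene of the opposite strand that has a row of its own, and the sources used here do not say whether reads were counted by strand. Each level below is in CPM, a gene's count scaled to a library of fixed size, after a correction of the library totals by TMM (trimmed mean of M-values), which allows for a few very abundant transcripts. A difference was called when it passed an adjusted p of 0.05 and a fold of 1.5 in edgeR's quasi-likelihood test, adjusted over all genes tested in that comparison (Benjamini-Hochberg). Each older age was set against 6 months in 8 fits, 1 for each sex and muscle, which gave 40 comparisons per gene.

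Library totals ran from 38583802 to 300089909 counts with a median of 72766895. The deepest was replicate 3 of the male diaphragm at 21 months, and the next reached 104836980. The muscles carried their own marks: the slow myosin Myh7 had a median of 6176 CPM in the soleus against 2.57 in the tibialis anterior, and the fast myosin Myh4 had medians of 40210 CPM in the gastrocnemius and 107.4 in the soleus. Among the 98 diaphragm libraries, 6 held Ckm, the muscle creatine kinase, below 0.25 of the diaphragm median (16.28 to 266.5 CPM, against at least 805.2 in the other diaphragm libraries), namely female replicates 0 at 21, 3 at 24, 0 at 27 and 2 at 6 months and male replicates 6 at 27 and 2 at 6 months. A pair of male diaphragm libraries carried liver transcripts (Alb at 20760 CPM in replicate 3 of 21 months and 8997 CPM in replicate 6 of 27 months). All 29 calls with age given below were also made without the 6 libraries low in Ckm, and all 29 without the library highest in liver transcripts. The low-Ckm libraries were the highest of their groups in Cbfb, at 55.37 to 72.18 CPM, except female replicate 3 at 24 months. That library held 41.77 CPM beside a group median of 41.46. Results that moved without the 6 libraries are named where they arise.

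The members differed widely in level. Per kilobase of exon, the mean level over the 6 ages in the female gastrocnemius (n = 52) was 36.9 CPM per kb for Cbfb, 1.66 for Runx1, 0.251 for Runx2 and 0.0814 for Runx3, and in the female diaphragm (n = 50) the same means were 11.6, 2.07, 0.327 and 0.584. On this per-kilobase RNA scale Cbfb exceeded the sum of its 3 Runx partners in each muscle of both sexes. The lengths joined all GENCODE exons of a gene (12025 bases for Runx1, 3480 for Cbfb) and were not those of the gene model used for counting. Without division by length the soleus means were 28.25 CPM for Cbfb and 29.32 for Runx1 in females, and 28.91 and 31.73 in males. Raw counts ran from 1178 to 14109 for Cbfb, from 309 to 12031 for Runx1, from 55 to 951 for Runx2 and from 0 to 1450 for Runx3. Runx3 was the least securely measured, with fewer than 10 counts in 56 of 407 libraries and 0 counts in 3 soleus libraries, where a count of 0 allows a level of up to 0.0366 to 0.0695 CPM from counting error alone.

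Of the 160 comparisons of the 4 genes with 6 months, 29 were called higher and 0 lower, whereas 1.67% of all gene tests in the 40 comparisons were called higher and 0.845% lower. Runx1 accounted for 17 of its 40, Runx2 for 6, Runx3 for 6 and Cbfb for 0 (3 at an unadjusted p under 0.05 in edgeR, 0 called by limma-voom and 0 by DESeq2). At 27 months 13 of the 32 comparisons were called, 7 of them for Runx1, against 2.96% of all gene tests. No member was called at 12 months (0.104% of all gene tests), 1 was at 18 months (0.83%), and the others were at 21 or 24 months (2.16% and 2.3%). The share of all genes called higher at 27 months was 4.08% in the female and 3.88% in the male gastrocnemius, and 5.93% and 2.81% in the tibialis anterior. Soleus shares were 1.72% in females and 0.808% in males, and diaphragm shares 0.543% and 4.16%. In these fits, each of 1 sex and muscle, the p-value measures the spread between libraries of different mice. The tests between muscles given below treat all libraries as independent, although some may come from 1 mouse.

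Runx1 rose with age in the hindlimb muscles of both sexes, and within each sex the log2 change at 27 months was larger in the gastrocnemius and tibialis anterior than in the soleus. In the female gastrocnemius its lowest, median and highest levels were 8.25, 9.73 and 10.8 CPM at 6 months (n = 8), 7.87, 10.1 and 14 at 18 months (n = 8), 20.1, 22.4 and 36.6 at 21 months (n = 8) and 21.1, 36.8 and 53.8 at 27 months (n = 10). From 21 months on, each of the female gastrocnemius libraries lay above the highest library of 6 months. The log2 change from 6 months was 1.40 at 21 months (SE 0.158, adjusted p 5.39e-09), 1.51 at 24 months (SE 0.153, adjusted p 1.78e-10) and 1.95 at 27 months (SE 0.155, adjusted p 1.04e-13), the last a fold of 3.87.

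In the male gastrocnemius Runx1 was the only member called at 18 months. It held 9.56, 10.6 and 12.4 CPM (lowest, median, highest) at 6 months, 14, 18.4 and 27.5 at 18 months, 16.4, 24.2 and 35 at 21 months, 11.8, 35 and 44.1 at 24 months and 31.2, 43.2 and 70.8 at 27 months. The groups of 18, 21 and 27 months did not overlap that of 6 months, and at 24 months the lowest library fell among the 6-month values. The log2 change was 0.86 at 18 months (SE 0.191, adjusted p 0.00468) and grew to 2.16 at 27 months (SE 0.19, adjusted p 4.04e-12), a fold of 4.46. All 4 male gastrocnemius calls and all 3 female ones were made whichever single library was left out.

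The tibialis anterior began lower and reached like levels. In females Runx1 moved from 5.49, 8.07 and 8.91 CPM at 6 months to 17.3, 35.8 and 89 at 27 months, with no overlap, a log2 change of 2.30 (SE 0.271, adjusted p 9.57e-09) and the highest fold of any member between ages, 4.92. In males it moved from 6.72, 7.97 and 12 CPM to 9.35, 32.8 and 46.4, a log2 change of 1.92 (SE 0.299, adjusted p 6.82e-06), with the lowest 27-month library inside the 6-month range. The female calls began at 21 months and the male calls at 24 months.

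In the soleus the rise was uneven over the libraries. Male soleus Runx1 stood at 12.2, 14.5 and 19.2 CPM at 6 months and at 15.3, 39.8 and 101.9 at 27 months, a log2 change of 1.71 (SE 0.345, adjusted p 0.00168). Female soleus Runx1 stood at 17.9, 21.9 and 26 CPM at 6 months and at 16.9, 30.3 and 83.4 at 27 months, a log2 change of 0.85 (SE 0.265, adjusted p 0.018). The older soleus groups thus spread from within the 6-month range to several times it. The female call at 27 months was lost without replicate 0 (adjusted p 0.0588) or replicate 9 (0.0623), that at 21 months without replicate 4 (0.105) or 6 (0.091), and the male call at 24 months without replicate 8 (0.112), whose level was 152.7 CPM.

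Within each sex the diaphragm gave the smallest change of Runx1 at 27 months. Female diaphragm levels were 22.6, 25.9 and 32.1 CPM at 6 months and 23.9, 28.7 and 32.4 at 27 months, and the log2 difference of 0.12 (SE 0.109, adjusted p 0.739) lay within the spread of the libraries. Male diaphragm levels were 17.1, 19.8 and 36.2 CPM at 6 months and 23.3, 29.2 and 117.3 at 27 months, a log2 change of 0.88 (SE 0.262, adjusted p 0.030). The highest male library, replicate 8 of 27 months, was also the highest of its group in the summed level of the denervation genes described below (1189 CPM against a group median of 361), and without it the change was 0.51 with an adjusted p of 0.150. The same call was also lost without any 1 of replicates 0, 1, 5 or 7 of 6 months (adjusted p 0.0508 to 0.059). The sample numbers in the labels fall into separate runs for each muscle, and the male diaphragm libraries of 27 months were spread over these runs (6, 1 and 3 libraries) otherwise than those of 6 months (2, 6 and 0). With the run as a further term, the male diaphragm change of Runx1 at 27 months was 0.25 with an adjusted p of 0.859, and with the replicate number as a block it was 0.66 with an adjusted p of 0.131.

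**Figure D1:**
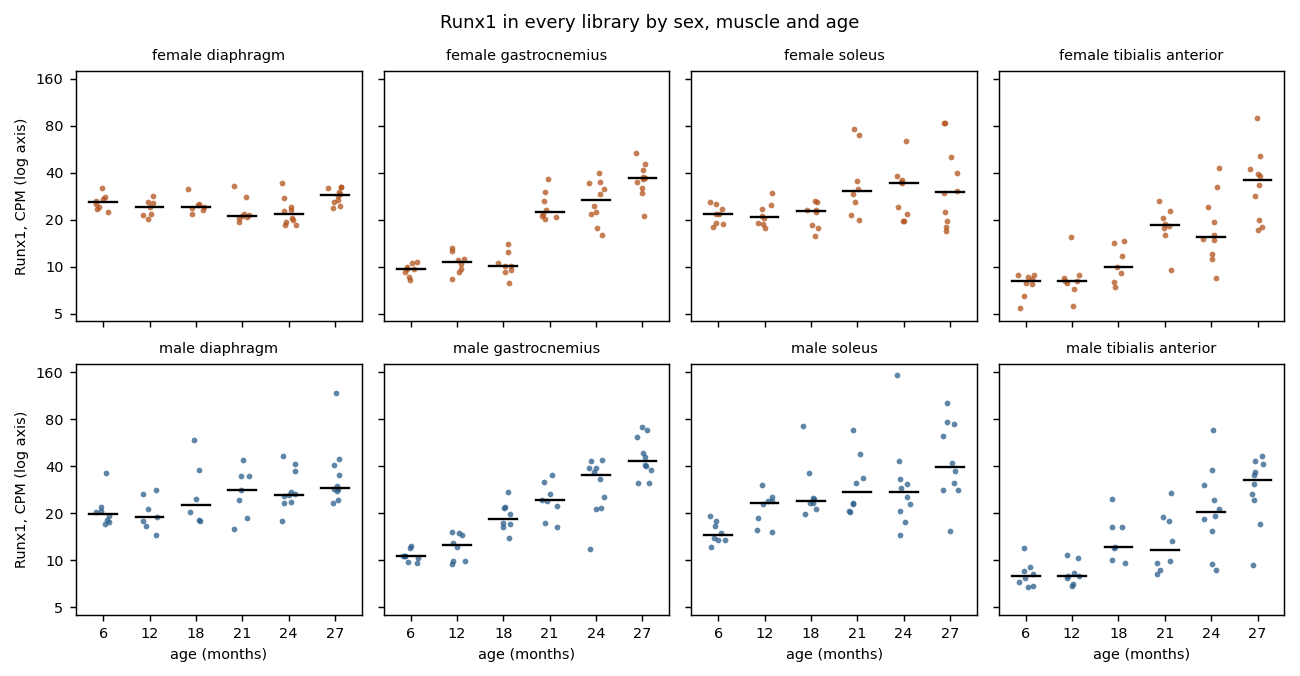
Runx1 level (CPM, log axis) in each library against age in months, with 1 panel for each sex and muscle (females above, males below), 1 point for each library and black bars at the group medians. The male gastrocnemius median reached 43.2 CPM at 27 months, whereas female diaphragm medians stayed between 21.2 and 28.7 CPM.

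The direct test of the difference between muscles gave the same contrast for Runx1 between diaphragm and gastrocnemius. The log2 change from 6 to 27 months was smaller in the female diaphragm than in the female gastrocnemius by a difference of -1.83 (SE 0.297, adjusted p 3.05e-06) and in males by -1.24 (SE 0.387, adjusted p 0.0477). The male difference did not pass without the 6 libraries low in Ckm (-1.03, adjusted p 0.158) or with library totals left unscaled (-1.19, adjusted p 0.0894). In females the soleus also rose less than the gastrocnemius, by a difference of -1.09 (SE 0.295, adjusted p 0.0123), while the male soleus difference of -0.44 (SE 0.386, adjusted p 0.948) and the tibialis anterior differences of 0.33 and -0.25 did not pass. Of the 24 interaction tests of the members 4 passed, 3 for Runx1 and 1 for Cbfb, against 2.22% of all gene tests of this kind.

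The time courses were also described by fitting the log2 levels with a flat line, a straight line and a logistic step and comparing them by the Bayesian information criterion. Runx1 was best described by a step centred at 20 months in the female gastrocnemius. Late steps were chosen in the male gastrocnemius and in both sexes' tibialis anterior. Their fitted centres lay at 27 months, the last age and the upper limit of the search, so that these centres were not located. In each of these fits the calls had begun before 27 months. A straight line served the male diaphragm and male soleus, and neither shape was clearly better than a flat line in the female diaphragm and female soleus. A trend fitted over all 6 ages on the log of age was called higher in 7 of 8 fits for Runx1, against 3.64% of all gene tests, the female diaphragm being the exception (log2 change from 6 to 27 months -0.02, SE 0.101).

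Runx2, the osteogenic member, was low in every muscle, and in the gastrocnemius and tibialis anterior of both sexes its log2 change at 27 months was smaller than that of Runx1. Male gastrocnemius levels were 1.25, 1.63 and 2 CPM (lowest, median, highest) at 6 months and 2.04, 2.43 and 4.11 at 27 months, with no overlap, a log2 change of 0.70 (SE 0.127, adjusted p 3.42e-05). Female gastrocnemius levels were 1.49, 1.66 and 2.32 CPM at 6 months and 2, 2.83 and 3.43 at 27 months, a log2 change of 0.66 (SE 0.109, adjusted p 5.39e-06), and here the groups overlapped. Male tibialis anterior rose by 0.74 (SE 0.183, adjusted p 0.00322). The female tibialis anterior difference of 0.45 (SE 0.0924, adjusted p 2.85e-04) passed the test but stayed under the fold limit at a fold of 1.37.

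Runx2 changed most in the male diaphragm, from 1.04, 1.46 and 1.68 CPM at 6 months to 1.28, 2.68 and 4.83 at 27 months, a log2 change of 1.10 (SE 0.305, adjusted p 0.021). This call was lost when the run was a term (0.65, adjusted p 0.517) and with the replicate block (1.02, adjusted p 0.0818). The female diaphragm difference of 0.86 (SE 0.385, adjusted p 0.279) did not pass, with 27-month libraries from 1.69 to 10.3 CPM. Neither sex's soleus passed at any age. The time courses of both gastrocnemius and both tibialis anterior groups were best described by a rising straight line.

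Runx3, the member of cytotoxic lymphocytes, was called in males only, in the diaphragm, gastrocnemius and tibialis anterior, while the difference between the sexes in its change from 6 to 27 months passed in 0 of 4 tests (0 at an unadjusted p under 0.05 in edgeR, 0 by limma-voom). Male diaphragm levels were 0.21, 1.03 and 1.19 CPM (lowest, median, highest) at 6 months and 0.793, 3.12 and 7.93 at 27 months, a log2 change of 1.91 (SE 0.488, adjusted p 0.0133). At 27 months 9 of 10 male diaphragm libraries lay above the highest one of 6 months, and the exception was at 0.793 CPM. Male gastrocnemius levels were 0.125, 0.184 and 0.244 CPM at 6 months and 0.188, 0.419 and 1.24 at 27 months, a log2 change of 1.36 (SE 0.377, adjusted p 0.0059).

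The intermediate Runx3 calls leaned on single libraries. Without replicate 4 of 21 months (14.4 CPM in the diaphragm and 1.36 in the gastrocnemius) the male calls at 21 months were lost, with adjusted p 0.219 in the diaphragm and 0.109 in the gastrocnemius. Without replicate 8 of 24 months (1.31 CPM in the gastrocnemius and 1.64 in the tibialis anterior) those at 24 months were lost, with adjusted p 0.0576 and 0.112. The 27-month calls in the male diaphragm and gastrocnemius were made whichever single library was left out, but that of the male diaphragm was lost when the run of label numbers was a term (log2 1.13, adjusted p 0.443) and with the replicate block (1.71, adjusted p 0.0559). By limma-voom only 1 of the 6 Runx3 calls was made, that of the male gastrocnemius at 27 months.

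In females Runx3 spread widely without a call. Female diaphragm levels were 0.559, 2.12 and 6.73 CPM at 6 months and 0.499, 3.15 and 15.7 at 27 months, a log2 difference of 1.13 (SE 0.553, adjusted p 0.346). The female tibialis anterior difference at 27 months was 0.79 (SE 0.311, adjusted p 0.0595), and the female gastrocnemius difference 0.69 (SE 0.32, adjusted p 0.0976). Over all 6 ages the trend of Runx3 was called in the female gastrocnemius, male diaphragm, male gastrocnemius and male tibialis anterior. When the run or the replicate number was added as a term, the trends of the male diaphragm and male tibialis anterior were not called. The soleus showed no call in either sex.

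**Figure D2:**
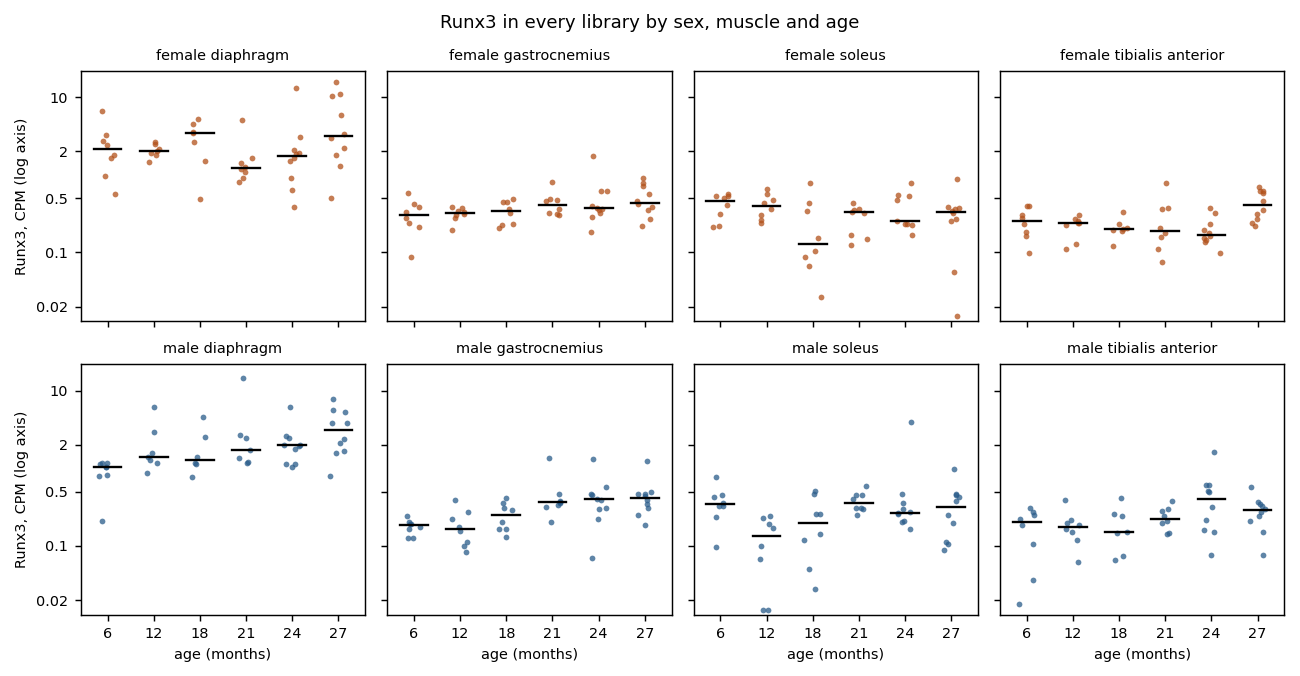
Runx3 level (CPM, log axis) in each library against age in months, with 1 panel for each sex and muscle (females above, males below), 1 point for each library and black bars at the group medians, and with libraries below 0.015 CPM, including those at 0, drawn at 0.015. Diaphragm medians lie above the hindlimb ones, and single high libraries reach 15.7 CPM in the female diaphragm and 3.98 CPM in the male soleus.

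Cbfb, the partner, was the steadiest of the 4. Its largest differences at 27 months were decreases in the gastrocnemius below the fold limit, from a median of 135.9 to 111.6 CPM in females (log2 difference -0.31, SE 0.0719, adjusted p 9.04e-04) and from 117.7 to 95.3 CPM in males (-0.23, SE 0.0774, adjusted p 0.026). In the other 6 fits the 27-month difference lay between -0.07 and 0.19 with standard errors of 0.0605 to 0.119. In females the change of Cbfb in the diaphragm differed from that in the gastrocnemius by 0.50 (SE 0.122, adjusted p 0.00537). Without the 6 diaphragm libraries low in Ckm, 3 of the 6 interaction tests of Cbfb passed rather than 1, and with library totals left unscaled 0 did.

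**Figure D3:**
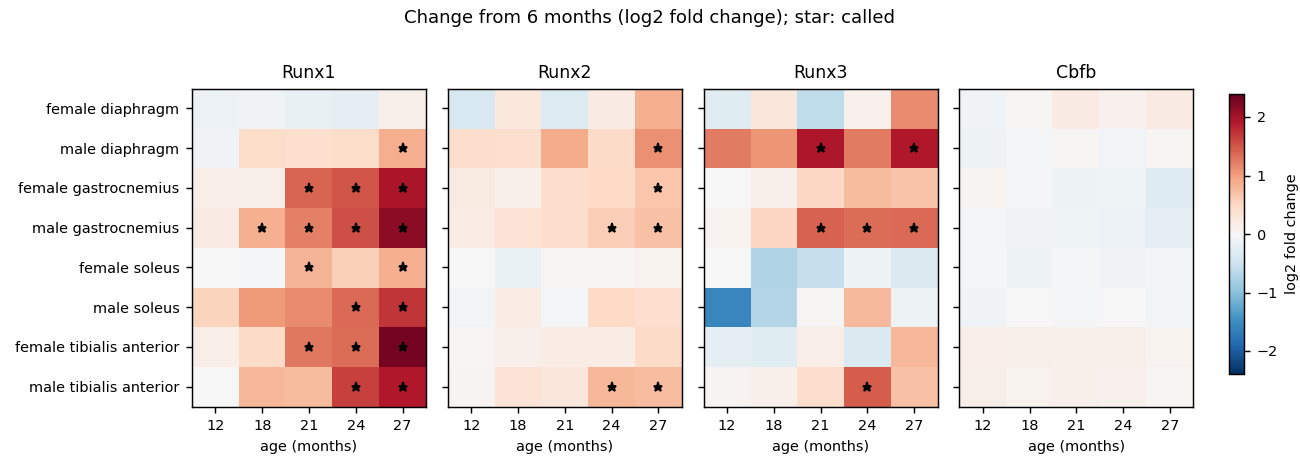
Log2 fold change from 6 months of the 4 genes as colour (red higher, blue lower), with 1 panel a gene, rows for the sex and muscle, columns for the older age in months and stars on called comparisons. Runx1 carries the most stars (17 of 40) with changes up to 2.30, and Cbfb carries 0 of 40.

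Between muscles the members followed different orders. Of 48 comparisons between pairs of muscles within a sex over all ages, 20 were called, against 37.3% of all gene tests. Cbfb gave 8 calls of 12, Runx3 7, Runx1 5 and Runx2 0 (8 at an unadjusted p under 0.05 in edgeR, 2 called by limma-voom). The share for Runx1 was near that of all genes, and Runx2 differed least between muscles.

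Cbfb was highest in the fast hindlimb muscles. Female medians over all ages were 128.1 CPM in the gastrocnemius (lowest 62.7, highest 163.9), 101.1 in the tibialis anterior (74.5 to 130.2), 38.4 in the diaphragm (30.9 to 72.2) and 27.9 in the soleus (23.5 to 36.4). Male medians held the same order, 103.4, 89.8, 40.6 and 28.2 CPM. The gastrocnemius exceeded the soleus by a fold of 4.495 in females (log2 2.17, SE 0.0377, adjusted p 5.95e-117) and 3.61 in males (log2 1.85, SE 0.0355, adjusted p 3.04e-109). Neighbours in the order, gastrocnemius and tibialis anterior, and diaphragm and soleus, passed the test in both sexes at folds of 1.13 to 1.41, under the fold limit. With library totals left unscaled, Cbfb was not called between diaphragm and tibialis anterior in either sex. Its difference between diaphragm and soleus was then called in both sexes.

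Runx3 was highest in the diaphragm. Its medians over all ages were 1.9 CPM in the female diaphragm (0.38 to 15.7) and 1.58 in the male diaphragm (0.21 to 14.4), and between 0.214 and 0.357 CPM in the 6 hindlimb sets. The diaphragm exceeded the other muscles by folds of 6.77 to 10.5 in females and 6.59 to 8.07 in males (log2 2.72 to 3.39, all 6 called). In these 6 comparisons 37.8% to 55.1% of all genes were called in either direction, so that a call there was common. Among hindlimb muscles only the female gastrocnemius and tibialis anterior differed past the limit, at a fold of 1.55 (adjusted p 0.00197), and in that comparison limma-voom made no call.

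Averaged over the 6 ages, Runx1 was highest in the soleus and diaphragm and lowest in the tibialis anterior. The soleus exceeded the tibialis anterior by a log2 difference of 0.95 in females (SE 0.0886, adjusted p 9.69e-21) and 0.93 in males (SE 0.116, adjusted p 4.17e-13), and the diaphragm did so by 0.76 and 0.73. Soleus and diaphragm differed by -0.20 (diaphragm minus soleus, adjusted p 0.0311) in females and -0.19 (adjusted p 0.119) in males. At 27 months alone the order of Runx1 was another. The diaphragm then had the lowest median in both sexes (28.7 CPM in females, 29.2 in males). The gastrocnemius had the highest (36.8 and 43.2 CPM). For Runx2 the differences over all ages lay between -0.55 and 0.33 and none passed the fold limit. These differences are relative to TMM scaling: with library totals left unscaled, the median difference of all genes moved by up to 0.97 (male diaphragm minus tibialis anterior), 32 of the 48 comparisons were called, 6 of them for Runx2, and the male diaphragm minus gastrocnemius difference of Runx2 turned from -0.11 to 0.63. In the comparisons with 6 months the same shift was between -0.255 and 0.124.

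**Figure D4:**
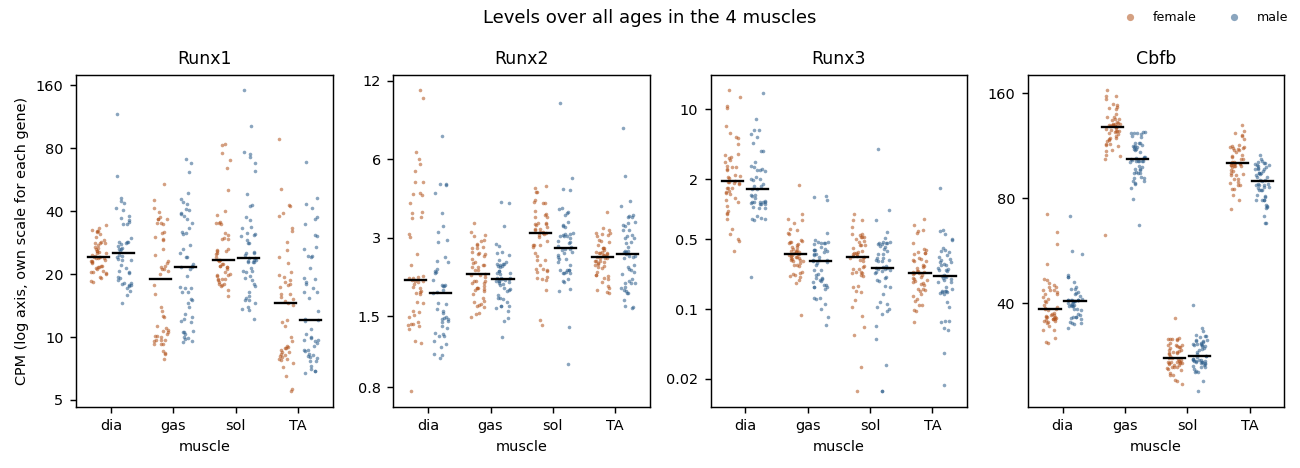
Level of each gene (CPM, log axis, 1 panel a gene) in every library, by muscle and sex over all ages (TA tibialis anterior, dia diaphragm, gas gastrocnemius, sol soleus), with black bars at the medians and Runx3 values below 0.015 drawn at 0.015. Cbfb medians fall from 128.1 CPM in the female gastrocnemius to 27.9 in the female soleus, and Runx3 is highest in the diaphragm.

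Between the sexes, with all ages in 1 model, 0 of 16 comparisons were called by edgeR and 0 by limma-voom, against 5.64% of all gene tests, and 5 passed an unadjusted p of 0.05. All 5 also passed the adjusted test at folds under the limit: Runx1 was lower in females in the gastrocnemius (log2 -0.29, adjusted p 1.94e-04), and Runx2 in the diaphragm (0.41, adjusted p 0.0419), Runx3 in the gastrocnemius (0.38, adjusted p 0.0177) and Cbfb in the gastrocnemius (0.31, adjusted p 3.42e-15) and tibialis anterior (0.19, adjusted p 2.84e-07) were higher. The change from 6 to 27 months differed between the sexes in 0 of 16 tests by edgeR and 0 by limma-voom (2 at an unadjusted p under 0.05), against 1.02% of all gene tests. Both of these were Runx1, with female minus male differences of -0.76 in the diaphragm (SE 0.277, adjusted p 0.558) and -0.87 in the soleus (SE 0.434, adjusted p 0.334).

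The genes that muscle fibres induce when they lose their nerve moved with Runx1. Of a list of 20 such genes, read in 8 fits, 80 of 160 tests were called higher and 0 lower at 27 months, against 2.96% and 1.21% of all gene tests. This list, like those below, was chosen with earlier results of these data known, so that its counts are a description and not a test. By muscle, 13 of the 20 rose in the female gastrocnemius, 14 in the male gastrocnemius, 16 in the female and 13 in the male tibialis anterior, 9 and 8 in the female and male soleus, and 2 and 5 in the female and male diaphragm. The median log2 change of the list was 0.91 in the female and 1.10 in the male gastrocnemius but 0.12 in the female and 0.30 in the male diaphragm, beside medians of all genes between -0.03 and 0.03 over the 8 fits.

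Single members of the denervation list differed in where they rose. Ankrd1, an ankyrin repeat protein of the stressed sarcomere, and Myh3, the embryonic myosin heavy chain, rose in 8 of 8 fits, by log2 1.16 to 4.97 and 0.66 to 2.83. Unlike Runx1, Myh3 had its largest change in the diaphragm in both sexes (2.29 in females and 2.83 in males), and Ankrd1 in the diaphragm in males (4.97). Gadd45a, a stress-induced growth arrest gene, rose in 7 of 8, and Chrng, the fetal subunit of the acetylcholine receptor, in 6 of 8, by up to 5.65, the diaphragm fits being the exceptions. Chrne, the adult receptor subunit, the adhesion molecule Ncam1, the myogenic factor Myod1 and the deacetylase Hdac9 rose in 0 of 8. The Runx motif was in 0 of the 17 promoter windows found for 14 of the 20 genes, against 5.27% of all windows, which is too few windows to set the list apart.

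The parallel was also seen between libraries of the same group. With each group's mean removed, Runx1 and the mean of the denervation genes (each gene's deviation divided by its SD) correlated with a Pearson r of 0.572 (Spearman rho 0.516) over 407 libraries. Within single muscles r reached 0.773 for the soleus (n = 103), 0.758 for the tibialis anterior (n = 102) and 0.616 for the gastrocnemius (n = 104), but 0.0914 for the diaphragm (n = 98). For Runx2, Runx3 and Cbfb the same r over 407 libraries was -0.0691, -0.0365 and -0.0758. By muscle, r of Cbfb ran from -0.418 in the diaphragm (rho -0.153) to 0.389 in the soleus (rho 0.235). For Runx2 it ran from -0.286 (diaphragm) to 0.138 (soleus), and for Runx3 from -0.126 (gastrocnemius) to 0.0947 (tibialis anterior). The points share library, depth and scaling, and these values describe the libraries only.

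Runx3, and in the diaphragm Runx2, went with genes of white blood cells instead. The deviations of Runx3 from the group mean correlated with the mean of 6 general leukocyte genes, among them Ptprc (CD45), with r = 0.683 (rho 0.624) over 407 libraries, and by muscle from 0.562 in the soleus to 0.904 in the diaphragm. For Runx2 r was 0.612 (rho 0.481) over all libraries, and by muscle it was 0.825 (diaphragm), 0.578 (tibialis anterior), 0.372 (gastrocnemius, rho 0.159) and 0.354 (soleus). For Runx1 it was 0.299 over all libraries. In the soleus the r of Runx2 was higher with fibroblast and fibro-adipogenic genes (0.506), macrophage genes (0.477) and tendon genes (0.413) than with the leukocyte genes. In the diaphragm Runx3 also followed the 3 cytotoxic T and natural killer genes (of 17) and the 5 B and plasma cell genes that were tested in all 8 fits (r = 0.834 and 0.795).

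**Figure D5:**
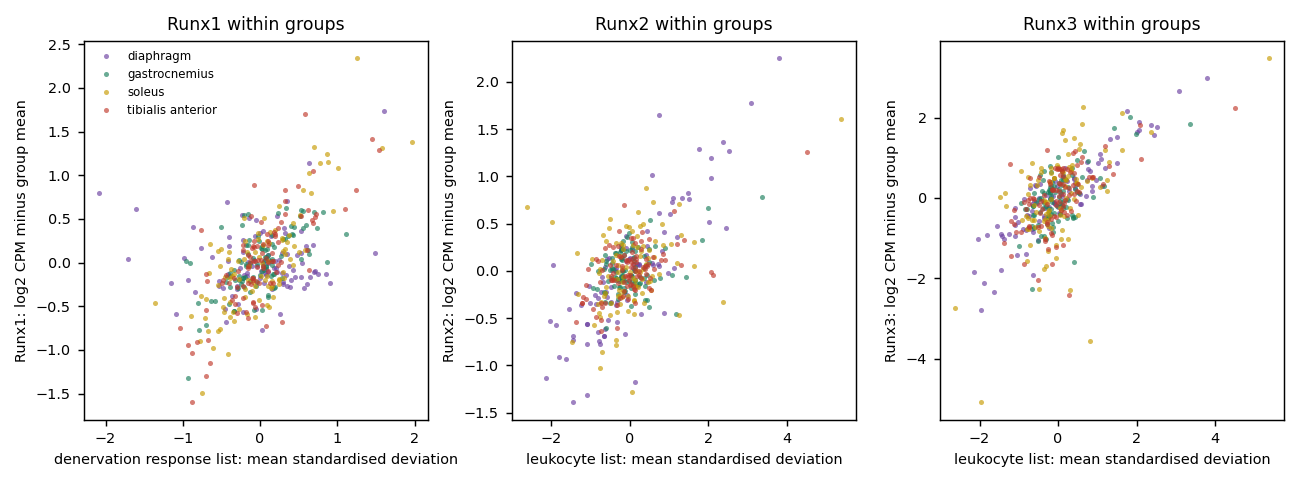
Deviation of Runx1, Runx2 and Runx3 from the group mean (log2 CPM, vertical axis) against the mean standardised deviation of the denervation genes (Runx1) or of the leukocyte genes (Runx2 and Runx3), with 1 point for each of the 407 libraries coloured by muscle. Runx1 follows the denervation genes outside the diaphragm (r = 0.0914 there), and Runx2 and Runx3 follow the leukocyte genes most closely in the diaphragm (r = 0.825 and 0.904).

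Those blood cell genes rose where Runx3 rose in the male diaphragm. At 27 months 6 of 6 leukocyte genes and 12 of 17 cytotoxic T and natural killer genes tested there were called higher, against 4.16% of all genes. The summed level of the leukocyte genes in the male diaphragm had a lowest, median and highest value of 45.1, 64.5 and 89.3 CPM at 6 months and 50.3, 145 and 290.4 at 27 months, and the cytotoxic sum moved from 2.29, 2.71 and 3.71 to 2.18, 15.4 and 41.3 CPM. In the female diaphragm, where no member was called, 0 of 6 and 0 of 17 were, with 27-month leukocyte sums of 87.1 to 511.8 CPM. In bulk tissue more cells of a type and more RNA per cell cannot be told apart, and the part of these cells in the Runx2 and Runx3 differences was not tested. The lowest male diaphragm library of 27 months in Runx3 (replicate 1, 0.793 CPM) was also the lowest in both sums.

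The match was not complete. In the female tibialis anterior 6 of 6 leukocyte genes were called at 27 months and Runx3 was not, whereas in the male gastrocnemius Runx3 was called and 1 of 6 leukocyte genes was. The single libraries that carried the intermediate Runx3 calls were high in leukocyte genes too. The male 24-month libraries numbered 8 had leukocyte sums of 94.3, 301.2 and 165.9 CPM in the gastrocnemius, soleus and tibialis anterior, against group medians of 16.6, 21.5 and 18.3, and the labels do not say that they came from 1 mouse. The male diaphragm library of 21 months numbered 4, the highest in Runx3, had a leukocyte sum of 381.5 CPM.

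Genes whose products act with Runx proteins gave few calls. Of 30 cofactors and modifiers, from the corepressors of the Tle and Eto families to coactivators such as Ep300 and partners such as Ets1, 0 of 240 tests were called higher and 2 lower at 27 months (76 at an unadjusted p under 0.05), against 2.96% and 1.21% of all gene tests, so that the share of lower calls was near that of all genes. Both lower calls were Pim1, a kinase reported to phosphorylate Runx proteins, in the female gastrocnemius (log2 -1.62, adjusted p 2.36e-09) and female tibialis anterior (-0.97, adjusted p 0.00276). Runx1t1, the Eto corepressor itself, lay between -0.45 and 0.35 at 27 months with no call. Over all 40 comparisons the list gave 8 higher and 12 lower calls in 1200 tests (0.667% and 1%). The shares of all gene tests were 1.67% and 0.845%. Pim1 had 2 of the higher and 10 of the lower calls, and Runx1t1 had 2 of the lower. The Runx motif was in 1 of 37 promoter windows of the list (2.7%, that of Ncor1) and in 5 of 14 windows of the cytotoxic T and natural killer list (35.71%, in Gzma, Gzmb, Klrk1 and Ncr1), against 5.27% of all windows.

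Markers of other cell types moved in both directions, and the counts at 27 months are to be read against 2.96% of all gene tests called higher and 1.21% lower. Of the bone and cartilage list, 9 of 89 tests were higher and 13 lower, and of the tendon list 0 of 56 higher and 17 lower. Fibroblast and fibro-adipogenic progenitor genes gave 27 of 80 lower and 0 higher, led by the collagens Col1a2 in 7 and Col1a1 in 6 of 8 fits, and satellite cell genes 19 of 64 lower and 0 higher. Schwann cell genes gave 7 of 64 higher and 4 lower. The cytotoxic T and natural killer list gave 14 of 60 higher and 1 lower. Most of its genes were tested in fewer than 8 fits, and most of its higher calls were those of the male diaphragm given above. The leukocyte list gave 14 of 48 higher, macrophage genes 9 of 88, B and plasma cell genes 6 of 48 (4 of them Jchain), liver genes 9 of 72 and muscle fibre genes 4 of 88 higher and 1 lower. All 9 liver calls fell in the female tibialis anterior, the fit with the largest change of Runx1, where the summed level of the list had a lowest, median and highest value of 7.49, 22.2 and 35.4 CPM at 6 months and 12.9, 94.7 and 744.9 at 27 months. Without the library highest in liver transcripts the Runx1 change there was 2.38 and was called, and over the tibialis anterior libraries of both sexes the deviations of Runx1 and of the liver genes correlated with r = -0.00404. Endothelial genes gave 0 of 48 (18 at an unadjusted p under 0.05 in edgeR) and haemoglobin and other red cell genes 0 of 37 (11).

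The genes most like each member, among 14181 others, differed by member and by the kind of variation. Over the 407 deviations from group means, Runx1 was most like Gadd45a (Pearson r 0.661, rho 0.502), the tubulin Tubb6 (0.645), the glucosylceramide synthase Ugcg (0.637) and Pvr (0.604). Runx2 was most like Dock10 (0.66), Lcp1 (0.623), Gm1966 (0.616), Stk17b (0.614) and Dock2 (0.612), of which Dock2 and the actin-bundling Lcp1 are known from white blood cells. Runx3 was most like the leukocyte integrin chain Itgb2 (0.653), the class II histocompatibility gene H2-Ab1 (0.651), Sla (0.634), Csf2rb (0.627) and Inpp5d (0.625). Cbfb was most like the cohesin regulator Pds5b (0.674), Xpr1 (0.666), Capza2 (0.659), Mtdh (0.658) and Cdc27 (0.647). Of the pairs of members, Runx2 and Runx3 were the most alike (0.454), followed by Runx1 and Runx2 (0.301), and Cbfb stayed between -0.0739 and 0.0907 with the 3 others.

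Over the 48 group means, where differences between muscles enter, the nearest genes included 8430408G22Rik (0.861) and Tubb6 (0.841) for Runx1, Rufy3 (0.755) for Runx2, Rasgrp1 (0.966), Rac2 (0.965) and Selplg (0.964) for Runx3, and Celf2 (0.99) and Cntnap2 (0.988) for Cbfb. Tubb6 stood near Runx1 by both measures. Leaving out the 2 points farthest from the median of each member left these group-mean r values between 0.792 and 0.989. With library totals left unscaled, only 1 of the 5 genes nearest to Cbfb over group means was again among its 5 nearest, and over deviations 2 of 5 were for Cbfb and 2 of 5 for Runx2. The 48 points comprise 12 means from each muscle and are not independent.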

How the data were processed

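Tables of raw counts per gene, deposited as 1 column for each library, were used as the authors made them. Per the study's methods and the labels, total RNA was depleted of ribosomal RNA, sequenced from strand-specific libraries and counted with the ArrayStudio software against mm10 and a RefSeq-based gene model. Where a gene symbol had more than 1 row, the row with the largest total was kept. The other 633 rows, holding 0.0335% of the counts, were left out. No column of values was left unused (0). Groups came from the titles and characteristics of the samples. No 2 libraries of a group were copies of each other (the lowest chi-square per gene in 1552 pairs was 8.81).

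Counts were filtered with filterByExpr, scaled by TMM and fitted with edgeR 4.0.16 (R 4.3.3), separately for each sex and muscle, with age as a factor or, for trends, the log of age. Muscles were compared within a sex and sexes within a muscle, with age in the model, and p-values were adjusted over all genes tested (Benjamini-Hochberg). A call needed an adjusted p under 0.05 and, except for interactions, a fold over 1.5. Described CPM used 1 TMM scaling over all 407 libraries (17580 genes), and likeness and time courses used log2 CPM with a prior count of 0.5. A shape was kept when its criterion beat the flat line by 6, and a step when it beat the straight line by 2. Likeness was Pearson's r over 14182 genes tested in all 8 fits, with the 5 highest named. Alternatives used limma-voom (limma 3.58.1), DESeq2 1.42.0, other scalings, filters, thresholds and blocks, and the omission of single libraries. The scripts were tested on simulated data. Total counts of 38583802 to 300089909 limit precision mainly for Runx3, and limits given for a count of 0 (3 counts) cover counting error only. Sequences came from RefSeq promoter windows and gene positions from RefSeq annotation of GRCm38.p6. Strands, exon lengths and overlapping genes came from GENCODE annotation.

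The 4 genes and the gene lists were chosen with earlier results of these data known. Named genes were the 4 members, the list genes described by their counts over the 8 fits, and the 5 genes most like each member, of which 1 for Runx1 is not reported here. Whether same-numbered libraries of a sex and age came from 1 mouse is not stated, and their deviations correlated with a median r of 0.13 in 599 pairs (median -0.0234 for other numbers), with 56.4% over 0.1 and the lowest at -0.599. As not every pair was over 0.1, the numbers were not used to pair libraries in the main models. The run of sample numbers, tried as a term, is the stretch of label numbers of a muscle in which a library falls.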

Additional observations from a re-analysis of the deposited data

Results flagged for a closer look

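Of 192 sets of values (4 genes in 48 groups), 46 held a library farther from its nearest neighbour than Dixon's 95% limit allows, in 33 libraries. The limit lets about 1 in 20 sets of normally distributed values pass by chance. It was applied to CPM without a log, so that the 46 cannot be set against that rate. In 44 sets the library was the highest of its group. They were 10 for Runx1, 11 for Runx2, 18 for Runx3 and 7 for Cbfb.

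For Runx1 the high libraries were the female diaphragm at 18 months (31.3 CPM), female soleus at 24 months (64.2), female tibialis anterior at 12 and 27 months (15.5 and 89.0), male diaphragm at 6 and 27 months (36.2 and 117), male soleus at 18 and 24 months (72.7 and 153) and male tibialis anterior at 6 and 24 months (12.0 and 68.7). For Runx2 they were the female diaphragm at 21, 24 and 27 months (4.42, 11.1 and 10.3 CPM), male diaphragm at 12, 21 and 24 months (4.45, 7.37 and 3.74), male gastrocnemius at 24 months (4.09), male soleus at 18 and 24 months (5.11 and 9.82) and male tibialis anterior at 24 and 27 months (7.88 and 5.16).

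For Runx3 the high libraries of the diaphragm were those of females at 6, 21 and 24 months (6.73, 5.12 and 13.2 CPM) and of males at 12, 21 and 24 months (6.18, 14.4 and 6.23). A low one was that of males at 6 months (0.21 CPM). In the gastrocnemius they were those of females at 21 and 24 months (0.796 and 1.76) and of males at 21, 24 and 27 months (1.36, 1.31 and 1.24). In the soleus they were those of females at 27 months (0.894) and of males at 24 and 27 months (3.98 and 0.975), and in the tibialis anterior those of females at 21 months (0.794) and of males at 12 and 24 months (0.389 and 1.64). The male 24-month libraries numbered 8 were high in all 3 Runx genes in the soleus and tibialis anterior. The female diaphragm libraries numbered 7 at 21 months and 1 at 24 months, and the male ones numbered 0 at 12, 4 at 21 and 5 at 24 months, were high in both Runx2 and Runx3.

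For Cbfb the high libraries were the female diaphragm at 6 and 27 months (59.0 and 72.2 CPM), male diaphragm at 6 months (71.1), female gastrocnemius at 24 months (149), male soleus at 24 months (39.6) and male tibialis anterior at 27 months (107), and a low one was the female gastrocnemius at 27 months (62.7). The 3 diaphragm libraries among these were low in Ckm.

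The change from 6 to 27 months differed between muscles by the test of the difference itself in 4 cases, all against the gastrocnemius: Runx1 in the female diaphragm (-1.83), male diaphragm (-1.24) and female soleus (-1.09), and Cbfb in the female diaphragm (0.50). How these values depend on the alternatives is given in the next part.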

How the results depend on the processing

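The 29 calls with age were all made again by DESeq2, with RLE scaling, without the filter on low counts, without the library highest in liver transcripts and without the libraries low in Ckm, the last an alternative added after the data were seen. With limma-voom 18 of the 160 comparisons were called (1 for Runx3), with Bonferroni adjustment 11 (Runx1 9, Runx2 2, Runx3 0), at an adjusted p under 0.01 19 (Runx3 1), with no fold limit 35 (Runx2 10, Cbfb 2) and with the run of sample numbers as a term 25. The 5 calls lost with that term included all 3 of the male diaphragm at 27 months (Runx1, Runx2 and Runx3), which were also lost with the replicate block and by limma-voom. Library totals without scaling, also added later, gave 30. Each call made under the strict thresholds was one of the 29, as these only tighten the rule.

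With the replicate number as a block 21 calls were made, 20 of them among the 29, and Runx3 kept 2. The trend over all ages fell from 15 calls to 10 with the block (Runx2 2, Runx3 2), to 11 with the run of sample numbers (Runx3 2), both without the 3 male diaphragm trends, and to 13 by limma-voom. Between muscles the block gave 21 calls, 2 of them for Runx2, and limma-voom also gave 2 for Runx2. The numbers were not shown to pair the libraries, and the cause of these differences was not tested.

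Leaving out each library in turn, 19 of the 29 calls were made every time (Runx1 13 of 17, Runx2 4 of 6, Runx3 2 of 6), and 5 comparisons not called with all libraries were called without some library, 3 of them of Runx3. Beside the losses named with the results, Runx2 at 24 months fell under the fold limit in the male gastrocnemius without replicates 0 or 1 of 6 months or 8 or 9 of 24 months (log2 0.48 to 0.58) and in the male tibialis anterior without replicate 8 (0.57). The gains were Runx1 in the male soleus at 21 months (adjusted p 0.0197 without replicate 8 of 24 months), Runx2 in the male diaphragm at 21 months (0.0327 without replicate 0) and Runx3 in the female gastrocnemius at 24 and 27 months (0.0363 and 0.0398 without replicate 6 of 6 months) and female tibialis anterior at 27 months (0.0323 without replicate 0 of 21 months).

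The comparison of muscles depended on scaling. Without TMM 32 of 48 comparisons were called rather than 20 (Runx1 9, Runx2 6), of which 18 were among the 20. The 2 calls lost were those of Cbfb between diaphragm and tibialis anterior in females and males. The male diaphragm minus gastrocnemius difference of Runx2 turned from -0.11 to 0.63. The interaction of muscle and age then passed in 2 of 24 tests (Cbfb 0), and without the libraries low in Ckm Cbfb passed in 3 of 6. The cause was not tested. Calls between the sexes were 0 under each alternative run. Depth limits Runx3 most, with a median of 25 counts a library.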
